A study of Mus musculus with 6 samples.

Results

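Transcripts of 40 autophagy genes were followed in C2C12 myotubes given TWEAK, a cytokine of the TNF superfamily that acts through the receptor Fn14. The genes were taken by name from a fixed set that was drawn up with earlier results of these data known: 5 of the initiation complex, 6 of the nucleation complex, 5 of phagophore growth, 8 of the conjugation machinery, the 5 ATG8-family genes, 5 cargo receptors, the 3 genes of the TFEB family that are listed and 3 lysosomal genes. All 40 were among the 49592 genes of the deposited table, each in 1 row. C2C12 is an established mouse myoblast line and was a single line throughout. Both groups were switched from 10% fetal bovine serum to 2% horse serum for 3 days of differentiation. The TWEAK group (3 libraries) then received 10 ng/ml TWEAK for 12 h, and the untreated group (3 libraries) received none. Libraries carry trial numbers 1 to 3 in each group, but the labels do not say whether a trial was a culture of its own, so the tests weigh differences against the spread among libraries, which may be technical. The question behind the comparison is how TWEAK changes gene expression in newly formed myotubes that are still fusing.

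Macroautophagy encloses cytoplasm in a double membrane and delivers it to lysosomes. The ULK1 kinase complex starts the process, a phosphatidylinositol 3-kinase complex built on VPS34 and Beclin 1 marks the site, and WIPI, ATG2 and ATG9 proteins feed lipid into the growing membrane. A ubiquitin-like conjugation system then attaches ATG8 proteins (the LC3 and GABARAP families) to that membrane, where they dock receptors that carry selected cargo. TFEB, TFE3 and MITF are transcription factors that raise lysosomal and autophagy genes when they enter the nucleus. In skeletal muscle the pathway removes damaged mitochondria and protein aggregates and, when overactive, contributes to loss of mass. Transcript levels do not measure flux through the pathway.

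Of the 40 autophagy genes, 2 rose with TWEAK and 0 fell. The risers were Gabarapl1, an ATG8-family gene (1.27-fold), and Sqstm1, which encodes the ubiquitin-binding cargo receptor p62 (1.22-fold). Levels are in FPKM, the authors' expression values scaled to gene length and a factor for each library. Changes are log2 fold changes on the log2(FPKM + 1) scale. They were tested with limma and adjusted over all 12770 genes with a mean of at least 0.5 FPKM. All 40 members passed that minimum. In the same fit 15.1% of all tested genes were called, 8.98% higher and 6.10% lower, against 2 members, or 5%. At an unadjusted p under 0.05 there were 3 members, Gabarapl1, Sqstm1 and Nbr1. The same 3 had an adjusted p under 0.05 in the authors' deposited table, beside 20.6% of the 15293 genes with one. The members' median log2 fold change was -0.01, beside 0.01 for all tested genes, and the median absolute change was 0.07, beside 0.12. The members' median within-group SD was also smaller, 0.078 on the log2 scale beside 0.103. Its part in the smaller absolute change was not tested. No set test was made.

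The 38 members that did not pass were not shown to be unchanged. Their log2 fold changes lay between -0.18 (Rb1cc1) and 0.15 (Tfe3). Their 95% intervals all lay between -0.36 and 0.33, which on this scale is 22.2% lower to 25.8% higher. Some of these intervals, as for Rb1cc1, Lamp2 and Ctsl, held a change as large as the rise of Sqstm1 (0.29), in one direction or the other. The standard error of the change was between 0.06 and 0.13 over the 40 members, with a median of 0.08. The TWEAK and untreated libraries did not overlap for 7 members, 3 of them higher (Gabarapl1, Sqstm1 and Tfe3) and 4 lower (Ulk2, Atg13, Wipi1 and Nbr1), beside 35.9% of all tested genes (20.0% higher and 15.9% lower). A fit with the trial as a replicate block called 3563 genes (27.9%), against 1926 without it, and the same 2 members.

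**Figure D1:**
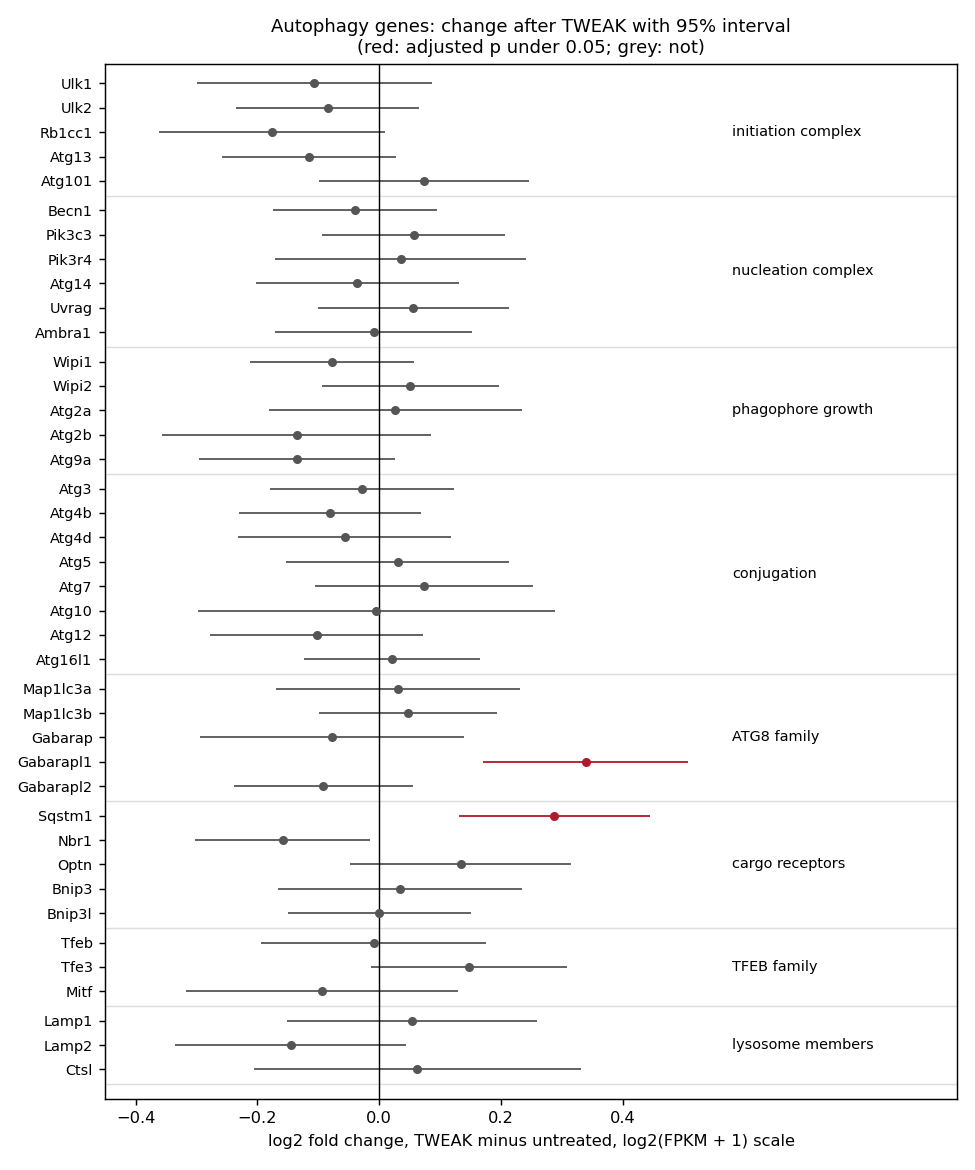
Log2 fold change (TWEAK minus untreated, log2(FPKM + 1) scale, horizontal axis) of the 40 autophagy genes by role, with 95% intervals from limma over 3 libraries per group. Gabarapl1 and Sqstm1, in red, are past an adjusted p of 0.05, and the intervals of the other 38 lie between -0.36 and 0.33.

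Depth ranged from 29968091 to 40905966 reads per library, as recovered from the FPKM values, and the least read member in any library, Atg10, had 202 reads. Of 4 check genes of the response to TWEAK, 3 rose, namely Nfkb2, Relb and Ccl2. Nfkb2, the precursor gene of the alternative NF-kB pathway, was at 77.5 ± 9.18 FPKM with TWEAK and 22.0 ± 1.73 without (SD, n = 3 each). Tnfrsf12a, the gene of the receptor Fn14, did not pass (0.991-fold, limma adjusted p = 0.937). All 7 markers of myotubes were expressed, from 18.0 FPKM up, and the list split. Myh3 and Ttn fell and 0 rose. Of the others, Acta1 was lower in all TWEAK libraries (0.834-fold) without passing. Myog, Des and Mymk were higher in all of them (1.17-, 1.15- and 1.12-fold), also without passing. Ckm overlapped between groups (0.840-fold) and did not pass. Of 6 markers of undifferentiated myoblasts, 2 rose (Cd34 and Msc) and 3 fell (Id1, Id3 and Myf5). Pax7 was lower in all TWEAK libraries (0.680-fold). Its limma adjusted p was 0.0704, or 0.00400 when trials were paired. Of 6 leukocyte markers 2 reached the expression minimum, of which Cd14 rose and Cd68 did not pass (log2 change 0.03); Itgam, below the minimum, was at 0.0983 to 0.176 FPKM with TWEAK and 0.216 to 0.247 without. Of 4 fibroblast markers, all tested, Col1a1 fell and Pdgfra, Dcn and Lum overlapped between groups. Of 4 epithelial markers only Cdh1 was tested, and it fell to 0.492 FPKM with TWEAK, against 0.961 without; 0 of 4 endothelial markers reached the minimum. The part of these shifts in the values below was not tested. In bulk RNA, fewer cells of a type and less RNA per cell cannot be told apart. The macrophage marker Adgre1 was listed at 0 in all 6 libraries and the leukocyte marker Ptprc reached at most 0.00573 FPKM. TWEAK replicate 3 had the largest sum of FPKM, 410814 against 376609 to 386763 in the other 5 libraries, and was the highest TWEAK library for several abundant members below.

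The members spanned a 257-fold range of levels. Lamp1, a glycoprotein of the lysosomal membrane, had the highest mean at 528 FPKM and ranked 71st of the 12770 tested genes. Sqstm1 (248 FPKM), Gabarap (222), the protease gene Ctsl (156), Map1lc3a (148) and Lamp2 (113) followed. The lowest were Mitf, at 2.06 FPKM, Atg4d (4.03) and Atg7 (4.60). In all, 29 of 40 members were above the median of all tested genes, 8.58 FPKM, and 28 were above 10 FPKM.

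**Figure D2:**
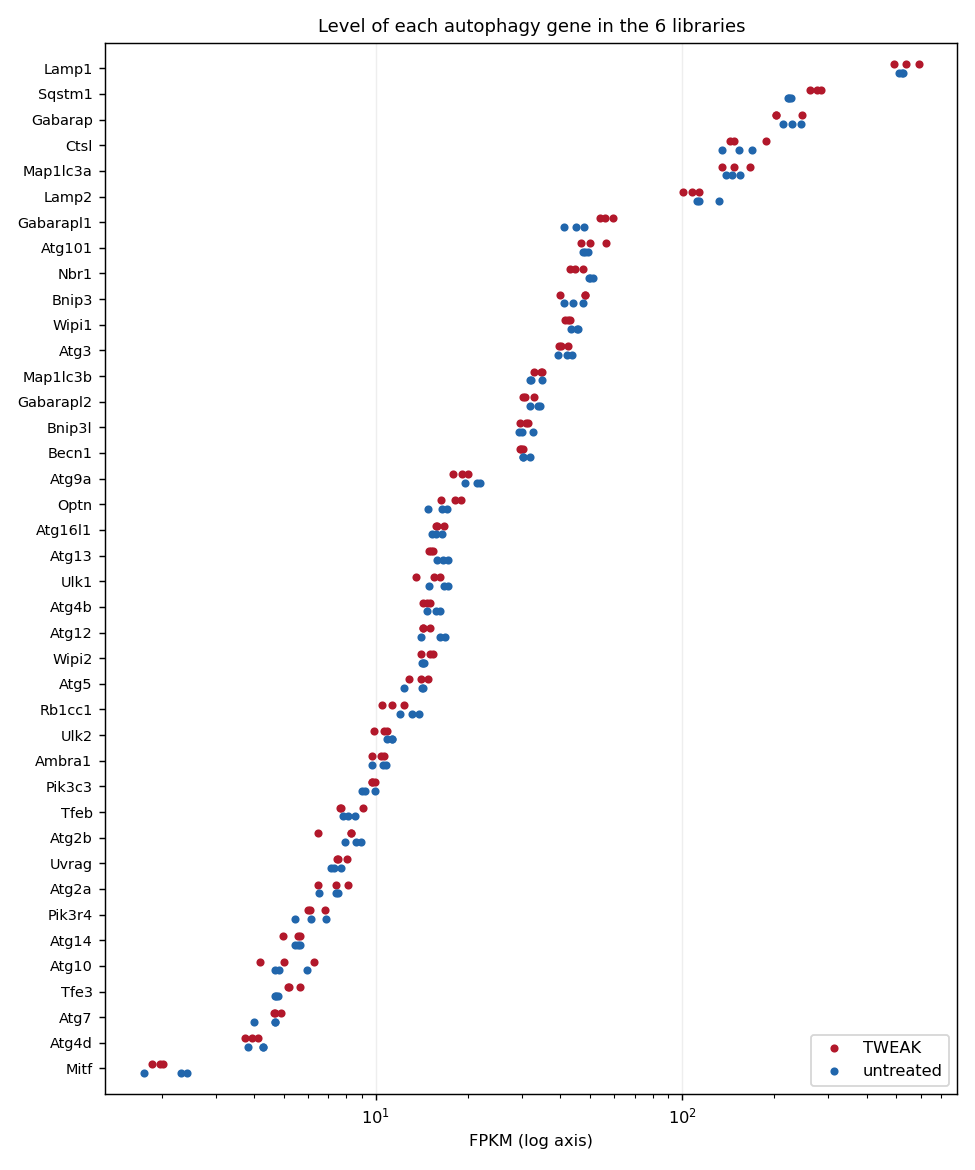
FPKM (log axis) of each of the 40 autophagy genes in the 3 TWEAK libraries and the 3 untreated libraries, ordered by mean level. Each point is 1 library, and levels run from 2.06 FPKM for Mitf to 528 FPKM for Lamp1.

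Of the 5 initiation genes, 0 passed. Ulk1, the kinase that starts autophagy, was at 16.2, 15.5 and 13.5 FPKM in TWEAK replicates 1 to 3, against 17.2, 16.7 and 15.0 in untreated replicates 1 to 3, and the groups overlapped. Rb1cc1, the gene of the scaffold FIP200, was at 12.3, 11.3 and 10.5 FPKM with TWEAK, against 13.9, 12.0 and 13.1 without. Its change was the lowest of the members, at -0.18 ± 0.08 (SE), and TWEAK replicate 1 lay above untreated replicate 2. The limma adjusted p was 0.186, or 0.0687 when trials were paired. Atg13, the adaptor of the complex, averaged 15.2 ± 0.243 FPKM with TWEAK and 16.5 ± 0.696 without (SD, n = 3 each). Its groups did not overlap, and it did not pass (limma adjusted p = 0.26). The paralog Ulk2 was at 10.5 ± 0.503 FPKM with TWEAK and 11.1 ± 0.263 without, and the partner of ATG13, Atg101, at 51.0 ± 4.79 and 48.3 ± 0.895. Over the 5 genes the median change was -0.11 on the log2 scale.

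Of the 6 nucleation genes, 0 passed. They had log2 fold changes from -0.04 to 0.06, with a median of 0.01. Becn1, the gene of Beclin 1, was at 29.6, 29.8 and 30.3 FPKM in TWEAK replicates 1 to 3 and 31.9, 30.2 and 30.3 in untreated replicates 1 to 3. Pik3c3, the lipid kinase VPS34, was at 9.80 ± 0.149 FPKM with TWEAK and 9.39 ± 0.456 without, and its regulatory subunit Pik3r4 at 6.32 ± 0.455 and 6.16 ± 0.708. Atg14, which directs the complex to autophagosomes, and Uvrag, which takes its place in endosomal complexes, were at 5.41 and 7.71 FPKM with TWEAK, against 5.56 and 7.37 without. Ambra1, a Beclin 1 partner, was at 10.3 FPKM in both groups. The limma adjusted p of the 6 was 0.619 or more.

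Phagophore growth genes gave 0 calls of 5. Wipi1, which binds the lipid made by VPS34, was at 41.5, 42.4 and 43.1 FPKM in TWEAK replicates 1 to 3, against 45.3, 45.7 and 43.2 in untreated replicates 1 to 3. The TWEAK values were all lower, by a narrow margin (limma adjusted p = 0.426). Its paralog Wipi2 was at 14.8 ± 0.680 FPKM with TWEAK and 14.3 ± 0.131 without. Atg9a, the lipid scramblase of the seed vesicles, was at 19.0 ± 1.02 FPKM with TWEAK and 20.9 ± 1.21 without, with an adjusted p of 0.238 by limma. The lipid-transfer genes Atg2a and Atg2b were at 7.33 ± 0.814 and 7.68 ± 1.05 FPKM with TWEAK, against 7.16 ± 0.564 and 8.50 ± 0.503 without.

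The 8 conjugation genes also gave 0 calls, with log2 fold changes from -0.10 (Atg12) to 0.07 (Atg7). Atg7 encodes the E1-like enzyme that activates ATG12 and the ATG8 proteins. It was at 4.89, 4.64 and 4.69 FPKM in TWEAK replicates 1 to 3 and 4.01, 4.68 and 4.69 in untreated replicates 1 to 3. Atg3, the E2-like enzyme for ATG8 proteins, was the most abundant of the group, at 40.7 ± 1.48 FPKM with TWEAK and 41.6 ± 2.28 without. Atg10, the E2-like enzyme for ATG12, was at 5.17 ± 1.06 and 5.16 ± 0.707 FPKM with and without TWEAK, and had the largest within-group SD of the 40 members on the log2 scale (0.208). The conjugate partners Atg5, Atg12 and Atg16l1 were at 13.9, 14.5 and 16.1 FPKM with TWEAK, against 13.6, 15.7 and 15.8 without. The ATG8-processing proteases Atg4b and Atg4d were at 14.6 and 3.93 FPKM with TWEAK, against 15.6 and 4.13 without.

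Within the ATG8 family, whose products coat the autophagosome membrane, 1 of 5 genes rose. Gabarapl1 (ENSMUSG00000030161.9, GRCm39 chr6:129510123-129519309) was at 54.1, 56.1 and 59.5 FPKM in TWEAK replicates 1 to 3 and 44.9, 41.0 and 47.7 in untreated replicates 1 to 3. All TWEAK libraries lay above all untreated ones, and the ratio within trials was 1.20, 1.37 and 1.25. On the log2 scale Gabarapl1 was higher by 0.34 ± 0.07 (SE), with a 95% interval of 0.17 to 0.51 and an adjusted p of 0.0166 by limma. A larger absolute change was found in 1722 of the 12770 tested genes, or 13.5%. Without TWEAK replicate 2, untreated replicate 1 or untreated replicate 2 the limma adjusted p was 0.0628, 0.054 and 0.0621, and 0.058 with no expression minimum. Pairing the trials in a replicate block gave 0.00151. The log2 fold change stayed between 0.28 and 0.39 under the 13 alternatives.

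The other ATG8 genes did not pass. Gabarap, the most abundant, was at 203, 202 and 246 FPKM in TWEAK replicates 1 to 3 and 228, 213 and 243 in untreated replicates 1 to 3. Map1lc3a, an LC3 gene, was at 147, 135 and 166 FPKM with TWEAK and 154, 139 and 145 without. In both genes TWEAK replicate 3 was the highest of the 6 libraries, and the groups overlapped. Map1lc3b, whose product LC3B is the usual protein marker of autophagosomes, was at 34.9, 32.8 and 34.5 FPKM with TWEAK and 34.8, 32.1 and 31.9 without. Gabarapl2 was at 30.1, 30.8 and 32.9 FPKM with TWEAK and 33.7, 32.0 and 34.4 without, lower in each of the 3 trials but with overlap. The limma adjusted p of these 4 was 0.383 or more.

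The family's summed level was 488 ± 44.8 FPKM with TWEAK and 485 ± 24.5 without (SD, n = 3 each; two-sided exact permutation p = 1). Gabarapl1 made up 11.5%, 12.3% and 11.0% of that sum in TWEAK replicates 1 to 3, against 9.06%, 8.98% and 9.50% in untreated replicates 1 to 3. Gabarap made up 44.3% with TWEAK and 47.0% without, on average. The ratio of Gabarapl1 to its paralog Gabarapl2 was 1.80, 1.82 and 1.81 with TWEAK and 1.33, 1.28 and 1.39 without. Its ratio to the paralog Gabarap was 0.267, 0.278 and 0.242 with TWEAK and 0.197, 0.193 and 0.196 without. The share and both ratios of Gabarapl1 did not overlap between groups. They were formed from the Gabarapl1 values that had passed above, so they describe the same change and are no further test. ATG8 genes are close paralogs, and how reads that match several genes were counted is not given in the sources used here.

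**Figure D3:**
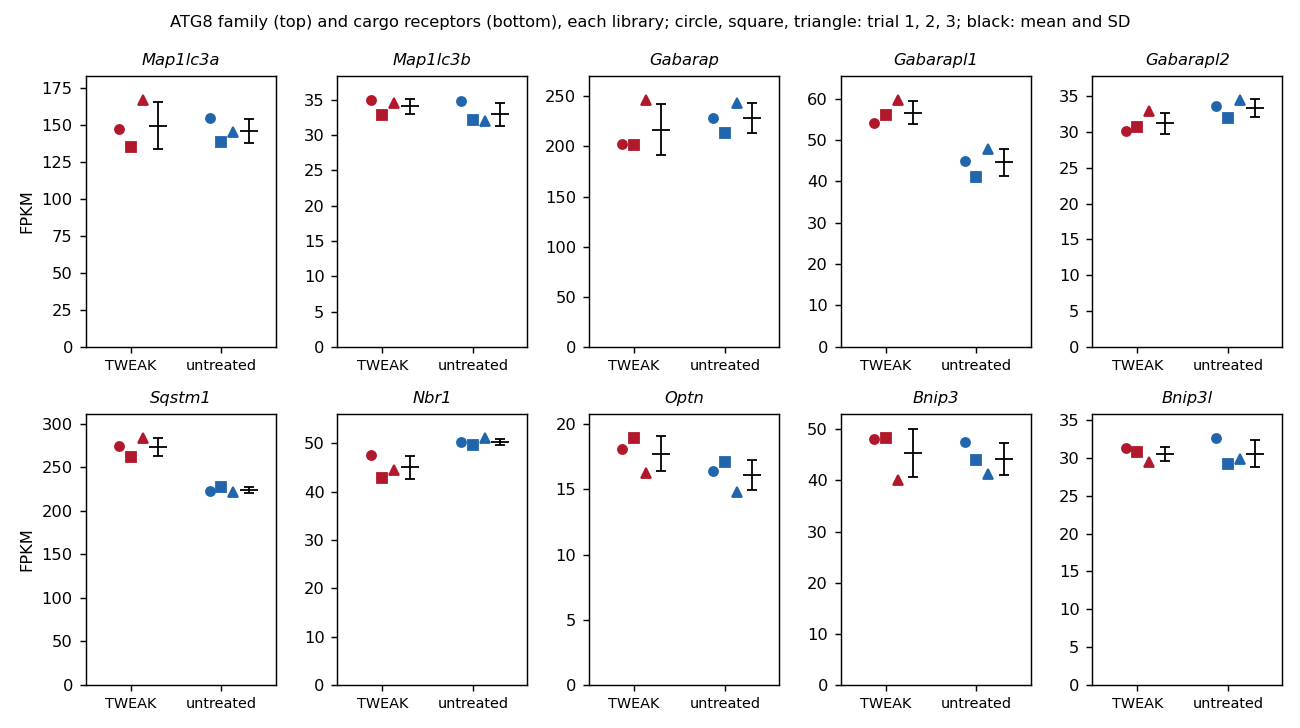
FPKM of the 5 ATG8-family genes (top) and 5 cargo receptor genes (bottom) in TWEAK libraries (red, left) and untreated libraries (blue, right). Symbols mark the trial and black bars the mean and SD of 3 libraries; the groups do not overlap for Gabarapl1 and Sqstm1, which are higher with TWEAK, and for Nbr1, which is lower.

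Of the 5 cargo receptors, 1 rose. Sqstm1 (ENSMUSG00000015837.16, GRCm39 chr11:50090193-50101654) encodes p62, which binds ubiquitinated cargo and LC3 and is itself degraded by autophagy. It was at 275, 262 and 283 FPKM in TWEAK replicates 1 to 3 and 222, 227 and 221 in untreated replicates 1 to 3. The groups were separated by a gap wider than the spread in either, and the ratio within trials was 1.24, 1.15 and 1.28. On the log2 scale Sqstm1 was higher by 0.29 ± 0.07 (SE), with a 95% interval of 0.13 to 0.44 and an adjusted p of 0.0241 by limma. A larger absolute change was found in 2299 tested genes, or 18.0%. The call was lost without any 1 library except TWEAK replicate 3. Leaving out TWEAK replicate 1 or 2 gave a limma adjusted p of 0.0508 or 0.0655, and leaving out untreated replicate 1, 2 or 3 gave 0.0961, 0.0711 or 0.0662. Testing without an expression minimum gave 0.0635. Quantile normalization gave a change of 0.18 (limma adjusted p = 0.0742), and pairing the trials in a replicate block gave a limma adjusted p of 0.0111. Sqstm1 overlaps the gene Mrnip, and the use of strand in counting is not given in the sources used here.

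Nbr1, a receptor of related design that also binds ubiquitin and LC3, was lower with TWEAK without passing. It was at 47.5, 42.9 and 44.5 FPKM in TWEAK replicates 1 to 3 and 50.2, 49.7 and 51.0 in untreated replicates 1 to 3. All TWEAK values were lower, by a log2 change of -0.16 ± 0.06 (SE; 95% interval -0.30 to -0.01). The limma adjusted p was 0.13, or 0.0769 when trials were paired. In the authors' deposited table Nbr1 has a log2 fold change of -0.16 and an adjusted p of 0.0177. That table comes from a fit that included further libraries. The ratio of Sqstm1 to Nbr1 transcripts per length was 5.78, 6.11 and 6.35 with TWEAK and 4.43, 4.57 and 4.34 without. Sqstm1 was higher and Nbr1 lower in all TWEAK libraries, so this ratio could not overlap between groups and adds no test.

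The remaining receptors overlapped between groups. Optn, the gene of optineurin, which acts in removal of mitochondria and bacteria, was at 18.1, 18.9 and 16.3 FPKM in TWEAK replicates 1 to 3 and 16.4, 17.1 and 14.8 in untreated replicates 1 to 3. It was higher with TWEAK within each trial and lowest in trial 3 of both groups (log2 change 0.13, limma adjusted p = 0.299, or 0.122 when trials were paired). Bnip3 and Bnip3l encode receptors in the outer mitochondrial membrane. Bnip3 was at 48.0, 48.2 and 40.02 FPKM with TWEAK and 47.5, 44.1 and 41.2 without. Bnip3l was at 31.3, 30.8 and 29.5 FPKM with TWEAK and 32.6, 29.3 and 29.9 without, with a 95% interval of -0.15 to 0.15 for its log2 fold change. The 5 receptors summed to 412 ± 8.53 FPKM with TWEAK and 365 ± 5.72 without (SD, n = 3 each). For this sum the two-sided exact permutation p was 0.1, the smallest that 3 against 3 libraries can give. Sqstm1 accounted for 66.3% of that sum with TWEAK and 61.3% without. Sqstm1 itself averaged 273 FPKM with TWEAK and 224 without. As its values had passed above, the sum describes the same change and is no further test.

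In the TFEB family, 0 of 3 genes passed. Tfeb was at 7.65, 7.70 and 9.07 FPKM in TWEAK replicates 1 to 3 and 8.57, 8.13 and 7.84 in untreated replicates 1 to 3, with overlap. Tfe3 was at 5.19, 5.68 and 5.19 FPKM with TWEAK and 4.69, 4.78 and 4.71 without. All TWEAK values of Tfe3 were higher, by a log2 change of 0.15 ± 0.07 (SE; limma adjusted p = 0.199). Mitf was at 2.01, 1.86 and 1.97 FPKM with TWEAK and 2.42, 1.75 and 2.31 without. These factors are controlled largely by phosphorylation and nuclear entry, which transcript levels do not show.

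None of the 3 lysosomal members passed. Lamp1 was at 536, 490 and 591 FPKM in TWEAK replicates 1 to 3 and 508, 522 and 524 in untreated replicates 1 to 3. The TWEAK libraries lay on either side of the untreated ones. Lamp2, needed for fusion of autophagosomes with lysosomes, was at 108, 101 and 113 FPKM with TWEAK and 113, 112 and 132 without. The groups overlapped, and its log2 change was -0.15 (limma adjusted p = 0.284). Ctsl, a cysteine protease of the lysosome, was at 143, 148 and 188 FPKM with TWEAK and 135, 153 and 169 without. In both groups trial 3 was the highest for Ctsl.

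The promoters of the 2 risers, and of Lamp1 as a member with several E-boxes, are shown as the sequence context of the changes above. RefSeq promoters (GRCm38.p6, 250 bases before to 50 after the start, 300 in all) were matched for 33 of the 40 members; Rb1cc1, Becn1, Pik3c3, Atg12, Atg16l1, Map1lc3a and Bnip3l had no entry. This build differs from the GRCm39 of the expression table. The E-box CACGTG, which TFEB-family factors bind, was in a promoter of 7 of the 33 members (Atg14, Atg3, Atg5, Atg7, Bnip3, Lamp1 and Ctsl), or 21.2%, and of 8.09% of the 27025 genes in the table. The longer TCACGTG, on either strand and always overlapping the shorter motif, was in 4 of 33 (Atg14, Atg3, Atg7 and Lamp1), or 12.1%, and 4.29% of all genes. The NF-kB consensus on either strand was in 5 of 33 (Atg101, Sqstm1, Tfe3, Mitf and Lamp1), or 15.2%, and 9.55% of all genes. A match describes these letters and is neither a site nor a cause. Capitals mark the NF-kB consensus of Sqstm1 (first base at -18 from the start) and the 4 E-boxes of Lamp1; Gabarapl1 held none of the 3 motifs in this window.
Gabarapl1 (chr6:129532942-129533241, + strand): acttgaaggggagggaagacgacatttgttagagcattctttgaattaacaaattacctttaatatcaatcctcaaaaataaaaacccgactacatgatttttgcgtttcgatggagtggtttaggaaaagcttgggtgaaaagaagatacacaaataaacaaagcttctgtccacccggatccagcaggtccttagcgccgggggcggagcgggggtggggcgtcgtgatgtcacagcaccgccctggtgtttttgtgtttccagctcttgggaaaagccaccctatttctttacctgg
Sqstm1 (chr11:50210771-50211070, - strand): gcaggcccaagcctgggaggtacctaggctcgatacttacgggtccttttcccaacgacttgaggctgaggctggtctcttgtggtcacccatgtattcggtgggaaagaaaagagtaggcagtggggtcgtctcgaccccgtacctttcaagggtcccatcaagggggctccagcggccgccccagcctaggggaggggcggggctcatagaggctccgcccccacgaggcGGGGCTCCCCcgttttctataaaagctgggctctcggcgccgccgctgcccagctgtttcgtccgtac
Lamp1 (chr8:13158911-13159210, + strand): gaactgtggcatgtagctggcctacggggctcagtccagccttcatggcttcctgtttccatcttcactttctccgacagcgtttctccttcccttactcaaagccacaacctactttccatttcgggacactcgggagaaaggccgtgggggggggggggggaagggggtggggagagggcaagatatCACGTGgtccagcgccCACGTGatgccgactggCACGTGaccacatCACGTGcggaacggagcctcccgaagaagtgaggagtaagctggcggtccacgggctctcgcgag
Lamp1 carried the densest set of E-boxes shown and had a log2 fold change of 0.05, with a 95% interval of -0.15 to 0.26. Its promoter also held the NF-kB consensus once, overlapping the start site and left in lower case. None of the 7 members with an E-box passed, beside 2 of all 40 members and 15.1% of all tested genes. Of the 5 members with the NF-kB consensus, Sqstm1 passed and Atg101, Tfe3, Mitf and Lamp1 did not. These counts are too small to set against those shares, and a link between motifs and calls was not tested.

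Around the members, 148 further genes of the pathway were listed in 5 groups, of which 143 were tested. Of these, 3 rose and 7 fell, or 6.99% beside 15.1% of all tested genes, with a median change of -0.03 on the log2 scale. Pairing the trials in a replicate block gave 11 and 20, or 21.7% beside 27.9% of all. Deptor, an inhibitor subunit of the mTOR complexes, had the lowest adjusted p of them, at 18.3 ± 0.424 FPKM with TWEAK and 33.7 ± 0.717 without (SD, n = 3 each). Its log2 change was -0.85 ± 0.06 (SE; adjusted p = 5.86e-05 by limma). The AMP-activated kinase subunits Prkaa2 and Prkab2 fell to 3.27 and 9.74 FPKM with TWEAK, against 5.12 and 12.9 without (limma adjusted p = 0.0077 and 0.0104). Ddit4, a stress-induced inhibitor of mTORC1, rose 1.31-fold (limma adjusted p = 0.0277). Foxo4 and Rptor, named after their values were seen, fell by 0.27 and 0.25 on the log2 scale. In all, 1 of 38 upstream genes rose and 5 fell, or 15.8%, close to the 15.1% of all tested genes. With the replicate block 4 rose and 11 fell, or 39.5% beside 27.9% of all. Deptor, Prkaa2 and Prkab2 kept their calls whichever library was left out.

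In the other 4 lists 0% to 6.25% of the tested genes were called, beside 15.1% of all tested genes. With the replicate block, which called 27.9% of all, 2 rose and 5 fell of the other ATG and receptor genes, 1 rose and 1 fell of the fusion genes, 0 rose and 2 fell of the vacuolar ATPase genes, and 4 rose and 1 fell of the lysosomal enzyme and membrane genes. Among 32 tested ATG and receptor genes outside the 40 members, Phb2, an inner mitochondrial membrane protein, rose 1.23-fold, and Atg9b fell to 2.04 FPKM with TWEAK, against 3.58 without (limma adjusted p = 0.0314 and 0.0117). Of 19 genes of autophagosome-lysosome fusion, Vps16, a subunit of the HOPS tether, rose 1.21-fold (limma adjusted p = 0.0479). Of 17 vacuolar ATPase genes, Atp6v1a, a catalytic subunit of the proton pump, fell to 54.2 FPKM with TWEAK, against 68.4 without (limma adjusted p = 0.0184). Of 37 lysosomal enzyme and membrane genes limma called 0 and limma-voom on recovered reads also 0 (4 had an unadjusted p under 0.05), with a median log2 fold change of 0.01. The call of Vps16 also ended after rescaling by median ratios (limma adjusted p = 0.0551) and under quantile normalization (0.0601). With no expression minimum, Deptor and Prkab2 were the only genes of the 5 lists still called. Without TWEAK replicate 2 the limma adjusted p was 0.097 for Phb2, 0.0501 for Atg9b, 0.0947 for Vps16, 0.075 for Atp6v1a, 0.115 for Ddit4, 0.165 for Foxo4 and 0.135 for Rptor. Without untreated replicate 2 it was 0.0998 for Phb2, 0.0562 for Atg9b, 0.0644 for Vps16, 0.0732 for Foxo4 and 0.131 for Rptor. Without untreated replicate 1 it was 0.0913 for Phb2, 0.134 for Vps16, 0.0758 for Ddit4, 0.147 for Foxo4 and 0.122 for Rptor. Phb2, Vps16, Ddit4 and Foxo4 also lost the call without untreated replicate 3 (0.0685, 0.132, 0.0848 and 0.0922), Vps16 and Ddit4 without TWEAK replicate 1 (0.0678 and 0.0535), and Vps16, Foxo4 and Rptor without TWEAK replicate 3 (0.103, 0.0592 and 0.084).

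**Figure D4:**
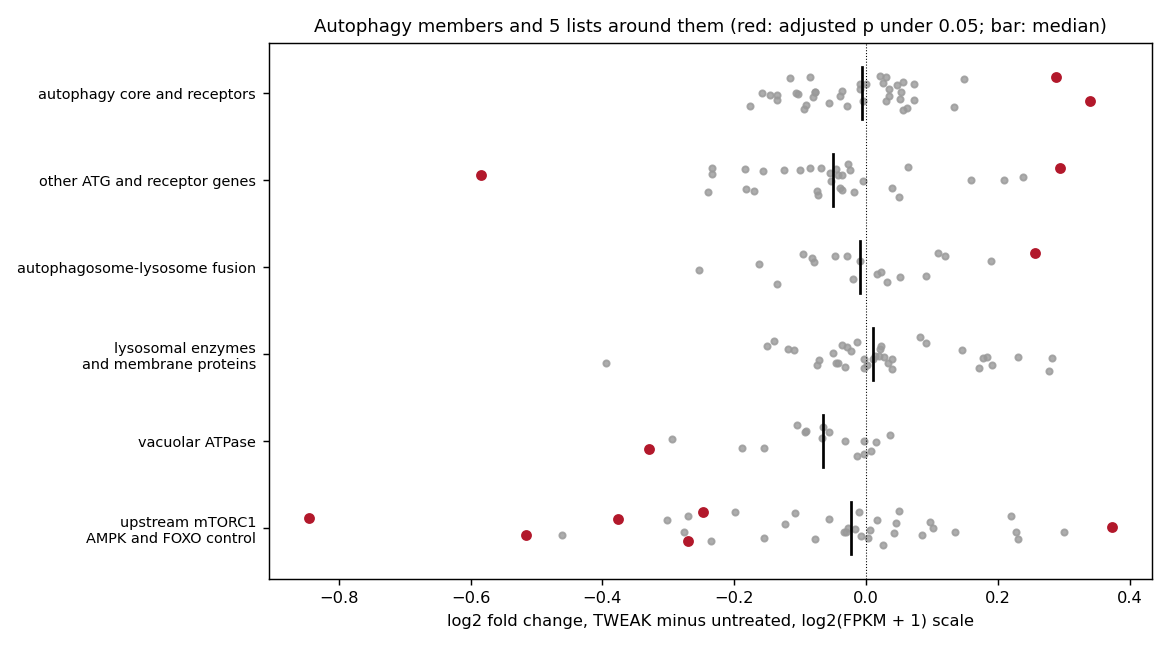
Log2 fold change (TWEAK minus untreated, log2(FPKM + 1) scale) of the 40 autophagy members and of 5 lists of further pathway genes. Each point is 1 gene, red where the limma adjusted p is under 0.05, and black bars are medians; 2 members are red, both to the right, beside 1 red point to the right and 5 to the left among the upstream genes.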

How the data were processed

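RNA from 6 libraries of poly(A)-selected transcripts was compared, 3 from TWEAK-treated and 3 from untreated C2C12 myotubes. The submitters' processing notes name DESeq2 1.22.2, HTSeq 0.6.1p2, STAR 2.6.0c, Trim Galore 0.5.0 and build GRCm39. Settings, annotation and use of strand were not stated in any source used. The deposited table gives FPKM per library, which per its name and column names are the authors' values. Per the file headers it also holds the authors' own comparison: a mean normalized count (a signal), a log2 fold change with its error, a score (the test statistic) and p-values. For 2337 genes that mean is above 0 although all 6 libraries are at 0, so that fit held further libraries, which are not analysed here.

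Each FPKM is a whole read number over a length and a library factor. Whole reads (relative tolerance 1e-06) were recovered for 126386 of 126386 non-zero values, or 100%. The divisor of each gene and the library factors were found from these same values, so this share is no independent check. For 400 genes, 0 of them members, a common factor was chosen from whole lengths and the deposited mean, which is an assumption. The reads gave depth and 1 alternative unit.

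As the unit was FPKM, limma-trend (limma 3.58.1, R 4.3.3) was fitted to log2(FPKM + 1) of genes with a mean of at least 0.5 FPKM, with group as the only term and two-sided p-values adjusted by Benjamini-Hochberg at 0.05. Adding 1 understates changes of genes near 0. Intervals are 95% and moderated. Exact permutation tests used scipy 1.17.1, and plots matplotlib 3.10.9. The fit was tested on simulated data. Alternatives were another pseudocount, other filters, the replicate block, other scalings, recovered reads and leaving out each library.

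Members and lists were chosen with earlier results of these data known. Named genes were all members, with the called ones, the ATG8 family, receptors and TFEB family per library, and up to 3 risen and 3 fallen genes of each other list. The main fit did not pair libraries by trial number, and the replicate block was an alternative fit. The labels do not give a pairing. In the data, deviations from the group means correlated across genes at 0.473, 0.218 and 0.434 within trials 1, 2 and 3. Between libraries with different trial numbers these correlations lay between -0.406 and -0.0200. The NF-kB motif was added after the data were seen.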

Additional observations from a re-analysis of the deposited data

How the results depend on the processing

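No called value changed sign under any of the 13 alternatives, but both calls among the members were lost under some of them, as given above. The number of members called higher was 0 with no expression minimum, 1 under quantile normalization, and 0 to 2 when single libraries were left out; it was 2 under the other settings, including the replicate block, and no member fell in any of them. Of 494 values of uncalled members under the alternatives, 30 had another sign than in the comparison as reported.

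Over all genes, 1147 rose and 779 fell. With no expression minimum the numbers were 499 and 302, with the replicate block 1965 and 1598, and without single libraries 501 to 1266 and 343 to 835. Of the other pathway genes, 3 rose and 7 fell; with no minimum these were 0 and 2, with the replicate block 11 and 20, and without single libraries 0 to 2 and 3 to 9. The cause was not tested, except that a fit without a library has fewer samples. The block changed the call of 0 members. For the summed ATG8 level, the difference of TWEAK minus untreated was 3.29 FPKM, -2.07 FPKM after rescaling by median ratios, and -22.3 to 19.2 FPKM without single libraries, so its direction is not established. For the receptors it was 47.2 FPKM, and 43.3 to 51.8 FPKM without single libraries. The receptor sum includes Sqstm1, the receptor that was called. Of the members, Atg10 had the fewest reads in a library, 202, and the part of depth in its spread was not tested.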
